A study of Mus musculus with 55 samples.

Results

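Chromatin that lost its call of accessibility under Chiron was followed in mouse epiblast stem cells (EpiSCs) lacking Cdx genes. The members were the regions of the 0h ATAC-seq list that overlapped no region of the 48h list by at least 1 bp and no region of the 4 Cdx2 and TBra lists of EpiSCs. They numbered 9697 of 44850 regions at 0h, or 21.6% of the list and 10.5% of the sequence it covered. The members were thus chosen by ATAC-seq calls at both times and by Cdx2 and TBra calls, and their number and width are descriptions of that choice. They are called closed regions here, which means called at 0h and not called at 48h. The lists give positions in build mm9 with no score or read depth, so a region may have become weaker without becoming inaccessible.

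The series holds 55 mouse samples on how Cdx and T act on growth signalling in the axial progenitors of the embryo, of which 21 come as lists of regions. The treated ATAC-seq library came from CdxKO EpiSCs kept for 48h without the Wnt secretion inhibitor IWP2 and with 3 µM Chiron (CHIR99021). The 0h library came from CdxKO EpiSCs in 2 µM IWP2. Both libraries used cells derived from embryos before streak formation and maintained in Activin A and Fgf-basic. There was 1 library per time and none kept for 48h without Chiron, so adding Chiron, leaving out IWP2 and time in culture cannot be told apart. The labels do not spell out which Cdx alleles CdxKO covers or how many lines were used, and the culture text of the 0h library also mentions cells null for Wnt3. Neither the deletion nor the cell type could be checked from lists of positions. The EpiSC ChIP-seq lists came from WT cells after 24h with 3 µM Chiron and 120 ng/ml Fgf8, and thus differ from the ATAC-seq cells in genotype, duration and Fgf8. H3K27ac was mapped there in 2 replicates and CBP-P300 in 1, and H3K27ac in untreated tailbud and anterior tissue of WT embryos at E9.5 in 2 replicates each. For replicate 1 of both E9.5 tissues the labels state that the antibody batch also bound H3K9ac, so replicate 2 was used for them unless replicate 1 is named.

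ATAC-seq marks DNA that a transposase can reach, which includes promoters, enhancers and insulator sites. CBP and P300 are paralogous acetyltransferases that place H3K27ac on histones at enhancers and promoters in use. Chiron inhibits GSK3 and so stabilises β-catenin, the effector of canonical Wnt signalling. EpiSCs represent the epiblast before the primitive streak, and Wnt activation moves them towards streak and axial progenitor fates, during which enhancers of the starting state are known to be taken out of use. Cdx2 and TBra (T, Brachyury) are transcription factors of those progenitors.

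The 48h list held 46532 regions with a median width of 498 bp and the 0h list 44850 with a median of 482 bp. No 0h region overlapped 11863 of the 48h regions (25.5%). In the other direction, no 48h region overlapped 9788 of the 0h regions (21.8%). Of these, 91 overlapped a Cdx2 or TBra region and were set aside, 77 of them by the larger Cdx2 list. At the edge of the rule, the 3 closed regions nearest to a 48h region lay 1, 1 and 2 bp away, and the 3 regions with the smallest 48h overlap that were counted as open at both times shared 1, 1 and 3 bp. Few members lay near that edge, as 59 were within 100 bp and 425 (4.38%) within 500 bp of a 48h region, and the median gap was 14350 bp. Closed regions were set against 34281 regions open at both times and 11473 regions open only at 48h, both after the same exclusion. With 1 library per time no test of such a difference could be made. Regions are not replicates, and the 95% Wilson intervals below cover counting error only.

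Closed regions carried little acetylation and almost no CBP-P300 in treated WT EpiSCs. H3K27ac in both replicates was found at 348 closed regions, or 3.59% (95% Wilson interval 3.24% to 3.98%), beside 35.3% of all 0h regions. The share was 6.67% of regions open only at 48h and 44.1% of regions open at both times. Taken singly, replicate 1 overlapped 480 closed regions and replicate 2 overlapped 1160, which is 4.95% and 12.0%. The same shares were 8.90% and 13.8% of the regions open only at 48h, and 45.6% and 54.8% of the regions open at both times. The gap to regions open only at 48h was thus small in replicate 2. CBP-P300 overlapped 106 closed regions, or 1.09% (0.905% to 1.32%), beside 18.5% of all 0h regions. It overlapped 2.74% of the regions open only at 48h and 23.2% of those open at both times. Read from the other side, 1.32% of the 0h regions with CBP-P300 closed and 26.7% of those without it did, leaving out regions with Cdx2 or TBra. For H3K27ac in both replicates the same shares were 2.25% with the mark and 32.8% without. No EpiSC ChIP-seq list was made at 0h, so the acetylation and CBP-P300 of these regions before treatment are unknown.

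**Figure D1:**
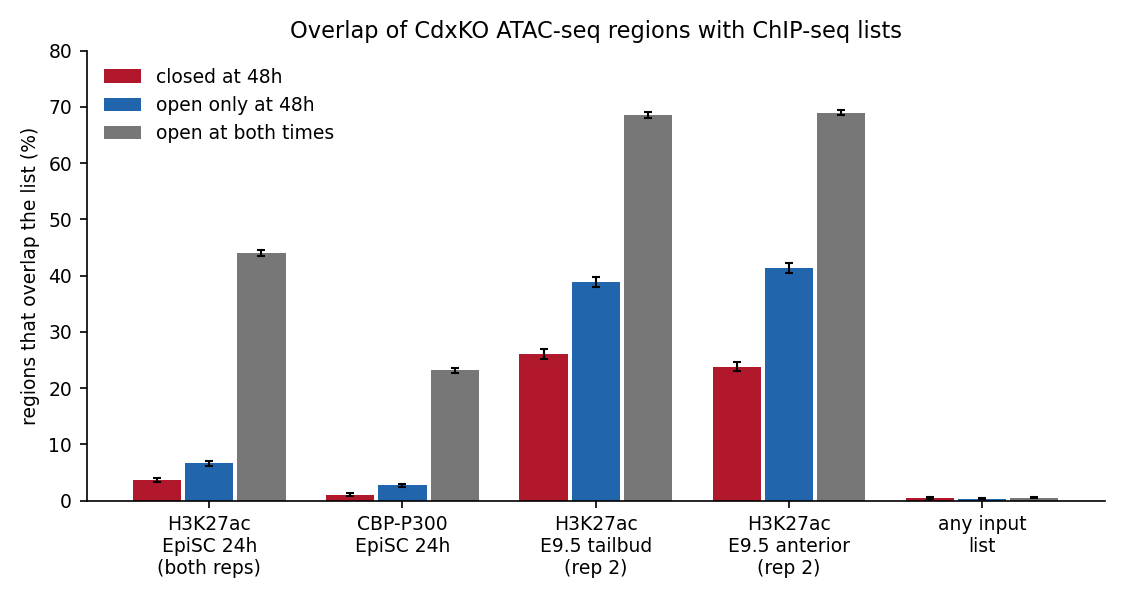
Share of regions (%, y axis) that overlap each ChIP-seq list (x axis) for closed regions (n = 9697), regions open only at 48h (n = 11473) and regions open at both times (n = 34281), with 95% Wilson intervals as bars. Closed regions have the lowest share in the 4 ChIP lists, and overlap with input stays under 0.5% for all 3 kinds.

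Acetylation at closed regions was also less alike between the EpiSC replicates. Of the 1292 closed regions acetylated in either replicate, 26.9% (24.6% to 29.4%) were acetylated in both. The share was 41.5% for regions open only at 48h and 78.1% for those open at both times. It is capped where the replicates overlap unequal numbers of regions. Replicates 1 and 2 overlapped 480 and 1160 closed regions, and 15647 and 18788 regions open at both times. The part of this imbalance in the shares was not tested. H3K27ac regions of replicate 2 that touched a closed region had a median width of 537 bp, against 953 bp for those that touched a region open at both times and 697 bp over the whole list. Where they met, the acetylated region covered a median 84.9% of the closed region and 88.4% of the region open at both times.

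In E9.5 tissue the share of closed regions with H3K27ac depended on the replicate. In replicate 2, tailbud H3K27ac overlapped 2523 closed regions, or 26.0% (25.2% to 26.9%), beside 59.5% of all 0h regions. Anterior H3K27ac overlapped 2312, or 23.8% (23.0% to 24.7%), beside 59.1%. For tailbud the share was 38.9% of regions open only at 48h and 68.6% of regions open at both times, and for anterior tissue 41.4% and 69.0%. In replicate 1 it was 11.8% of closed regions for tailbud and 6.34% for anterior tissue. Regions open only at 48h had 18.8% and 14.3%, and regions open at both times 55.6% and 50.4%. A call in both replicates was found at 11.5% of closed regions in tailbud and 6.30% in anterior tissue. The replicate 2 E9.5 lists cover more sequence, 83.2 Mb in tailbud and 69.5 Mb in anterior tissue, than the EpiSC lists with 27.4 and 32.1 Mb, so their levels cannot be compared with those of EpiSCs directly. In replicate 2, 3216 closed regions were acetylated in either tissue (33.2%), and 2357 of these had no H3K27ac in either EpiSC replicate. The share of such regions that did have it was 26.7%. That was close to the 26.2% for regions open only at 48h and below the 73.2% for regions open at both times. A further 6037 closed regions (62.3%) overlapped none of the CBP-P300 list, the replicate 2 E9.5 lists and the EpiSC H3K27ac lists of either replicate, against 46.2% of the regions open only at 48h and 23.5% of those open at both times.

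Among closed regions acetylated in a single E9.5 tissue, most were acetylated in the tailbud, in both replicates. In replicate 2, 904 were acetylated in the tailbud alone and 693 in anterior tissue alone, so that tailbud alone made up 56.6% (54.2% to 59.0%). Regions open only at 48h gave 1114 and 1401, or 44.3%, and regions open at both times gave 1731 and 1867, or 48.1%. In replicate 1 the closed regions gave 690 and 165, or 80.7% (77.9% to 83.2%), the regions open only at 48h 65.3% and those open at both times 73.3%. The tailbud list was the larger in each replicate, with 39284 regions against 28599 in replicate 1 and 76071 against 61674 in replicate 2, and the part of list size in these shares was not tested. The order of the 3 kinds of region was the same in both replicates, with closed regions highest and regions open only at 48h lowest. In replicate 2, within each of the 4 narrower width bins described below, tailbud alone made up 55.1% to 62.1% at closed regions. It made up 34.2% to 47.8% at regions open only at 48h and 44.2% to 49.6% at regions open at both times. The intervals of closed regions and of regions open at both times overlapped in bins 1 and 3, counted from the narrowest, and not in bins 2 and 4. In replicate 1 the same bins gave 78.0% to 83.5% at closed regions and 49.7% to 71.6% at regions open only at 48h. Regions open at both times gave 72.8% to 74.7% there, with intervals that overlapped those of closed regions in bins 1, 3 and 4. The widest bin held only 4 closed regions acetylated in the tailbud alone and 3 in anterior tissue alone. In replicate 2, the 1619 closed regions shared by the tissues made up 50.3% of those acetylated in either. The same share was 57.1% for regions open only at 48h and 85.8% for regions open at both times.

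**Figure D2:**
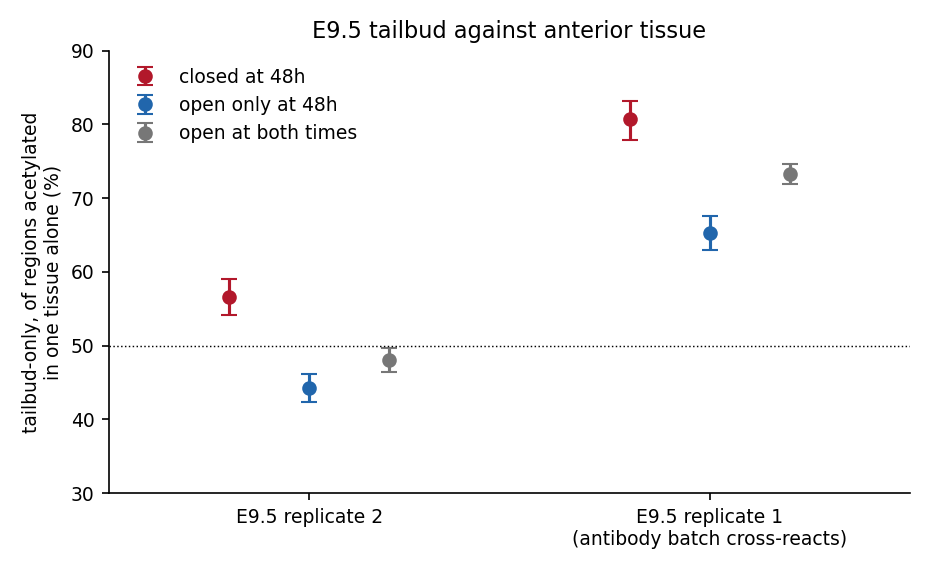
Of regions with H3K27ac in a single E9.5 tissue, the share acetylated in the tailbud (%, y axis), for closed regions, regions open only at 48h and regions open at both times, in each E9.5 replicate (x axis); bars are 95% Wilson intervals and the dotted line marks 50%. Closed regions are highest in both replicates, at 56.6% in replicate 2 and 80.7% in replicate 1.

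Closed regions were narrow. Their median width was 269 bp (quartiles 202 and 383, range 157 to 2225 bp), close to the 262 bp of regions open only at 48h and below the 602 bp of regions open at both times. Width comes from the same 0h calls as the rule, so it is given as a description. Of the 0h regions of up to 257 bp, 51.0% closed, and the share was 31.7% at 258 to 384 bp, 19.6% at 385 to 613 bp, 6.90% at 614 to 1032 bp and 0.899% above that. Wider regions overlap any list more readily, so the shares were compared within these 5 bins.

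Overlap with E9.5 acetylation changed little with width at closed regions and was higher in each wider bin in both other kinds. EpiSC H3K27ac in both replicates was found at 2.92%, 3.56%, 4.94%, 4.98% and 2.53% of closed regions over the bins. The shares were 4.61%, 6.15%, 9.24%, 17.1% and 15.5% for regions open only at 48h, and 8.25%, 10.3%, 23.7%, 60.1% and 86.8% for regions open at both times. From the narrowest to the widest bin, tailbud H3K27ac overlapped 23.8%, 26.7%, 30.2%, 27.5% and 25.3% of closed regions. For regions open only at 48h the shares were 31.3%, 38.0%, 50.7%, 65.8% and 70.7%, and for regions open at both times 36.3%, 39.8%, 60.3%, 84.8% and 96.2%. Anterior H3K27ac stayed between 22.2% and 27.9% over the bins at closed regions, whereas it reached 83.6% in the widest bin of regions open only at 48h and 96.4% in that of regions open at both times. CBP-P300 overlapped 0.735%, 1.1%, 1.8%, 1.66% and 1.27% of closed regions. For regions open only at 48h the shares were 1.32%, 2.49%, 3.46%, 10.8% and 18.1%, and for regions open at both times 1.84%, 2.89%, 8.0%, 26.7% and 56.9%. The widest bin holds 79 closed regions, and the 4 bins below it hold 603 to 4488. With the regions open at both times weighted to the widths of the closed ones, their shares were 15.4% for EpiSC H3K27ac, 5.23% for CBP-P300, 45.1% for tailbud and 45.4% for anterior tissue, which leaves closed minus open at both times at -11.9, -4.13, -19.1 and -21.5 percentage points in that order. Against regions open only at 48h weighted in the same way, the differences were -3.15, -1.67, -13.2 and -17.9 points.

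**Figure D3:**
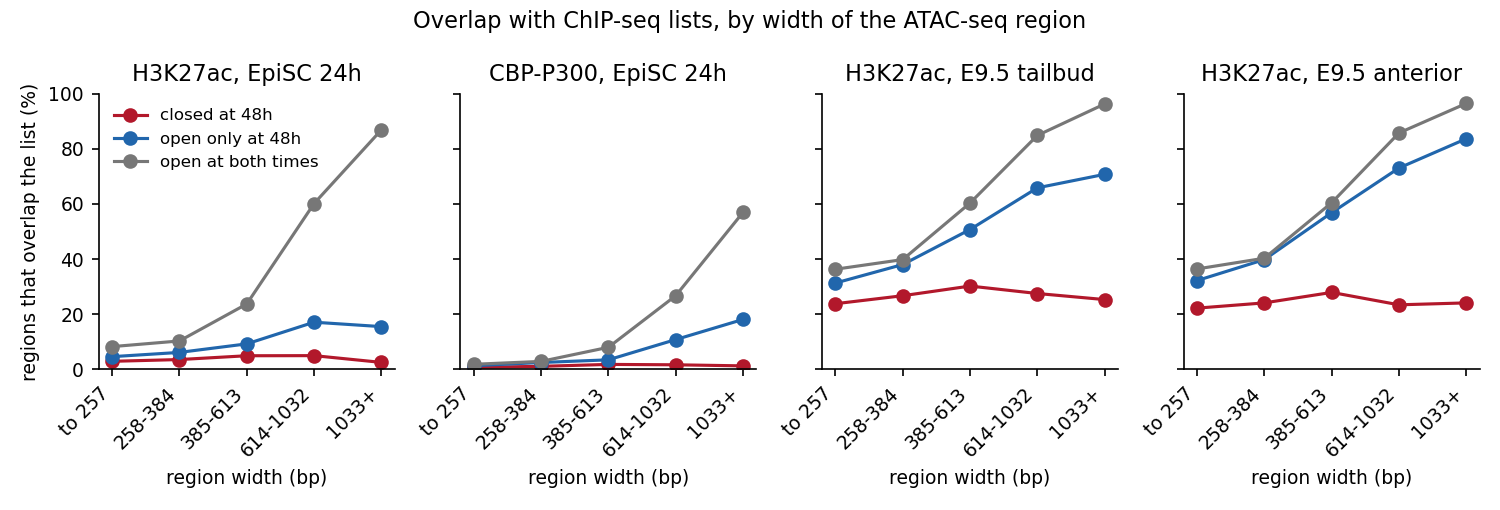
Share of regions (%, y axis) that overlap each of 4 ChIP-seq lists, by width of the ATAC-seq region in 5 bins (bp, x axis), for closed regions, regions open only at 48h and regions open at both times. The closed regions run nearly level for the E9.5 tissues, with tailbud shares between 23.8% and 30.2%, while the tailbud shares of regions open at both times reach 96.2%.

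The share of 0h regions that closed fell with the number of lists a region overlapped, counted over EpiSC H3K27ac in both replicates, CBP-P300 and the 2 E9.5 tissues. It was 42.7% of 14945 regions in none of the 4, 31.8% with 1, 17.2% with 2, 2.50% with 3 and 0.407% of 7128 regions in all 4. Within the narrowest bin it was 56.6% in none and 17.6% in all 4, where 51 regions remain, 9 of them closed. In the bin from 614 to 1032 bp it was 33.1% in none and 0.266% in all 4, and in the widest 23.0% and 0.0210%. In each width bin the share was lower with each further list, though the bins with all 4 lists hold 1 to 10 closed regions each. The lists share many of their regions and are not independent marks. None of them was made in EpiSCs at 0h, so they do not give the marks these regions carried before treatment.

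**Figure D4:**
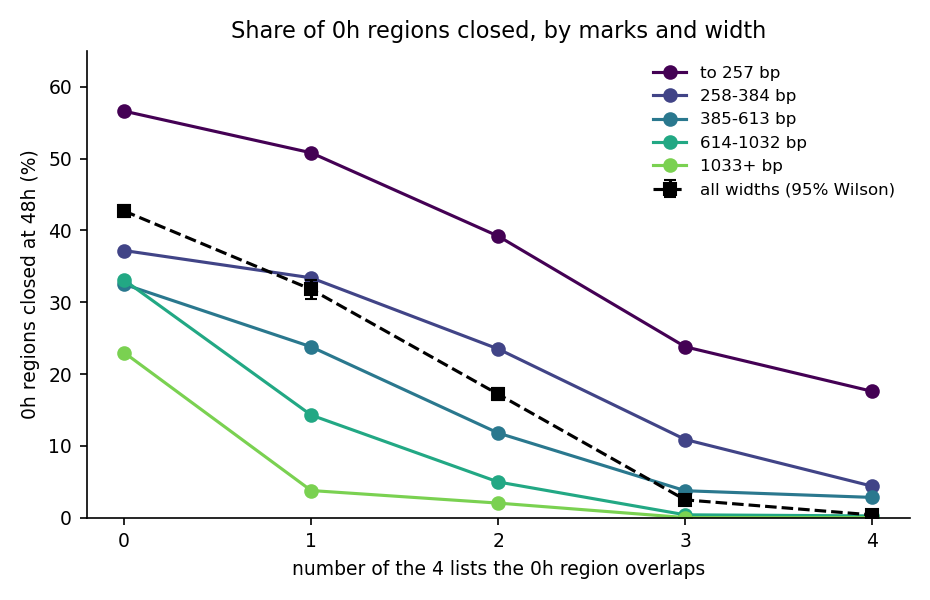
Share of 0h regions that closed (%, y axis) by how many of 4 ChIP-seq lists the region overlaps (x axis), within 5 width bins (colours) and over all widths (black squares, with 95% Wilson intervals). The share over all widths is 42.7% with none and 0.407% with all 4, and it falls in every bin.

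Many of the 106 closed regions with CBP-P300 were also acetylated. H3K27ac was present in both EpiSC replicates at 45 of them (42.5%) and in either at 72 (67.9%), and in E9.5 tailbud at 79 (74.5%) and anterior tissue at 68 (64.2%). Regions open only at 48h with CBP-P300 (314) had H3K27ac in both EpiSC replicates at 65.6% and in tailbud at 89.8%. For regions open at both times with CBP-P300 the shares were 90.6% and 97.3%. Median widths of the regions with CBP-P300 were 324 bp for closed, 400 bp for open only at 48h and 1187 bp for open at both times. The part of width in these shares was not tested. In all 4 lists stood 29 closed regions, with a median width of 416 bp. The 5 widest with CBP-P300 were chr11:95401946-95403228 (1283 bp), chr15:76295438-76296458 (1021 bp), chr2:75797588-75798503 (916 bp), chr7:116636941-116637766 (826 bp) and chr11:116981872-116982688 (817 bp). All 5 carried H3K27ac in both EpiSC replicates and in tailbud replicate 2, and the one on chromosome 7 had none in anterior tissue. The nearest 48h region lay 1.11 to 12.9 kb away from them.

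The 5 widest closed regions were chr4:95995839-95998063 (2225 bp), chr11:27212700-27214912 (2213 bp), chr13:67338414-67340561 (2148 bp), chr2:103929498-103931437 (1940 bp) and chr3:15957461-15959372 (1912 bp). Only the one on chromosome 4 overlapped any ChIP list, that of tailbud replicate 2, and it lay 49.9 kb from the nearest 48h region. No input region overlapped any of these 5. Of the 79 closed regions in the widest bin, 56 were in none of the 4 lists, and of all 9697 closed regions 6378 were, which is a similar share. The 5 widest acetylated in both E9.5 tissues were chr17:86778440-86779742, the chromosome 11 region of 1283 bp named above, chr2:20864937-20866165, chr7:120971730-120972895 and chr6:99389354-99390507. Of these, only the chromosome 11 region had CBP-P300, and those on chromosomes 17 and 7 had no EpiSC H3K27ac in either replicate.

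Closed regions also lay farther from marked chromatin. Their median distance to the nearest CBP-P300 region was 97.0 kb, against 56.8 kb for regions open only at 48h and 29.8 kb for regions open at both times. Within 10 kb of a CBP-P300 region lay 12.0%, 18.7% and 36.0% of these 3 kinds in the same order. These shares include the 1.11%, 2.74% and 23.2% that overlapped or touched one. To the nearest EpiSC H3K27ac region of either replicate the median was 19.5 kb for closed regions and 11.7 kb for regions open only at 48h, and most regions open at both times overlapped one (56.4%). The median distance to a tailbud H3K27ac region was 6.83 kb for closed regions and 1.53 kb for regions open only at 48h, and to an anterior one 8.61 and 1.12 kb. Distances to Cdx2 and TBra regions differed less, with medians of 204 kb for closed regions, 169 kb for regions open only at 48h and 181 kb for regions open at both times. Regions with such an overlap had been set aside in all 3 kinds.

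**Figure D5:**
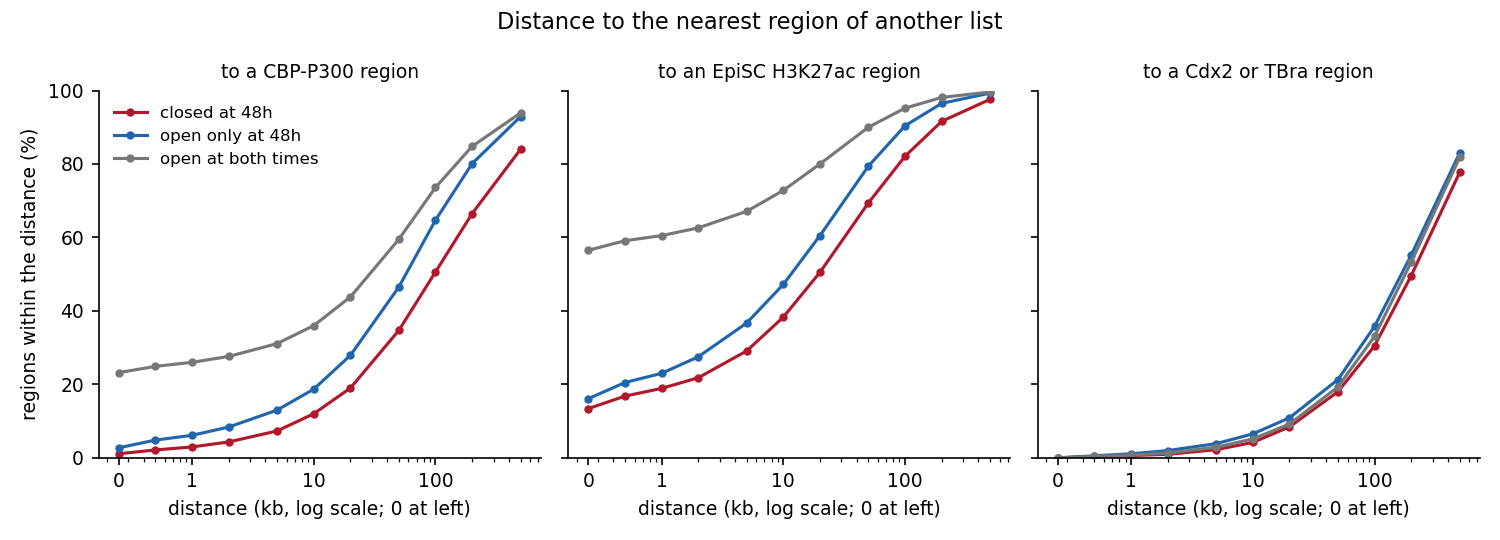
Share of regions (%, y axis) within a given distance (kb, log scale with 0 drawn at the left end, x axis) of the nearest CBP-P300, EpiSC H3K27ac (either replicate) and Cdx2 or TBra region, for closed regions, regions open only at 48h and regions open at both times. Overlapping regions count as a distance of 0. At 1, 10 and 100 kb closed regions are lowest in each panel, with 12.0% within 10 kb of CBP-P300, and the curves lie closest together for Cdx2 and TBra.

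Most closed regions stood alone at the distance used here, which was not counted for the other kinds of region. The share depends on the number of regions and on that distance. With neighbours joined up to 20 kb apart, 7099 closed regions (73.2%) had no other closed region beside them, and 39 runs held 4 or more, 165 regions in all. None of these 39 runs held a member with CBP-P300, where a count of 0 allows up to 7.69% of runs, 14 held a member acetylated in either EpiSC replicate and 27 a member acetylated in E9.5 tissue. Over all closed regions, 1.09% had CBP-P300, 13.3% EpiSC H3K27ac in either replicate and 33.2% E9.5 H3K27ac in either tissue. Those are shares of single regions, whereas a run of 4 or more counts when any 1 of its members overlaps. Counts of runs therefore cannot be set against them, and no difference between the runs and the rest was tested. In 19 of the 39 runs no region open at both times lay between the members. The longest run, at chr4:53784178-53810545, held 6 closed regions of 208 to 606 bp over 26.4 kb and no region open at both times or only at 48h. Tailbud H3K27ac overlapped 2 of its members and anterior H3K27ac 2, with no EpiSC H3K27ac or CBP-P300. A run of 5 at chr7:75368122-75390890 had 1 member acetylated in anterior tissue. Another run of 5 at chr11:3027439-3042655 overlapped input regions at all 5 members and no ChIP-seq list of EpiSC H3K27ac, CBP-P300 or E9.5 H3K27ac, with 3 regions open at both times and 1 open only at 48h in the same span. Whether these calls depend on signal present without an antibody was not tested. The input lists overlapped 42 closed regions in all, or 0.433% (0.321% to 0.585%), 0.366% of regions open only at 48h and 0.487% of regions open at both times.

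A region open only at 48h lay within 1 kb of 1.76% of closed regions and within 10 kb of 13.4%, with a median distance of 68.4 kb. For regions open at both times the same shares were 3.25% and 18.7%, with a median of 47.1 kb. The nearest region open at both times lay at a median of 20.6 kb from closed regions and 13.3 kb from regions open only at 48h. These distances depend on the size of the list searched, so the 34281 regions open at both times and the 11473 open only at 48h are not compared as targets.

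Every autosome held closed regions. Among autosomes, and leaving out regions with Cdx2 or TBra, the share of 0h regions that closed was lowest on chromosome 11, at 16.9% (15.6% to 18.2%), with 18.3% on chromosome 19 and 18.9% on chromosome 7. It was highest on chromosome 13, at 26.6% (24.7% to 28.6%), followed by 26.3% on chromosome 1 and 25.6% on chromosome 3. Chromosome 11 had 535 closed regions, of which 5.23% had EpiSC H3K27ac in both replicates and 31.6% tailbud H3K27ac. On chromosome 13 the same shares of 526 closed regions were 2.85% and 24.7%. The X chromosome lost 20.9% of its regions, and its 212 closed regions held tailbud H3K27ac at 16.5% and anterior H3K27ac at 14.2%, the lowest of the chromosomes with closed regions. None of them had CBP-P300, and a count of 0 allows a share of up to 1.42%, which includes the 1.09% of all closed regions. Chromosome 18 also had none among 319 closed regions, where a count of 0 allows up to 0.940%, below that 1.09%. Both chromosomes were picked for their count of 0 among all those with closed regions, so these limits do not set them apart. On chromosome 13, CBP-P300 was found at 1 of the 526 closed regions. No difference between chromosomes was tested. A further 22 closed regions lay on unplaced sequence.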

How the data were processed

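The authors deposited 1 list of regions per sample as chromosome, start and end in build mm9, with no score. Per the submitters' processing notes, ATAC-seq reads were handled with cutadapt 1.8.1, Bowtie2 2.1.0, SAMtools 0.1.19 and MACS2 2.1.0, and ChIP-seq reads with Bowtie 1.1.0, SAMtools 0.1.19 and MACS2 2.1.0. Thresholds and read depths are not given in the sources used here, so a difference in depth between the libraries could move calls. Overlap meant at least 1 bp, computed with Python 3.11.15, numpy 2.4.6 and pandas 2.3.3, and the interval functions were tested on simulated lists against bedtools 2.31.1. Intervals are 95% Wilson intervals from scipy 1.17.1; a count of 0 was given the limit that 3 counts allow. Runs joined members up to 20 kb apart. Named regions were the 5 widest members in all, with CBP-P300 and with H3K27ac in both E9.5 tissues, and the 3 runs with most members, none on chromosome 18.

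The members, lists and width bins were chosen with earlier results of these data known, and the counts over 4 lists and of regions acetylated in 1 tissue alone were added after seeing the overlaps. No genome or gene annotation of mm9 was at hand, so sequences, motifs and neighbouring genes, with the gene counts by CEL-seq and their planned tests, were not analysed here. The 4C-seq samples were not used here.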

Additional observations from a re-analysis of the deposited data

How the results depend on the processing

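The number of closed regions was 9697, and 1367 when only regions at least as wide as the median 0h region (482 bp) were kept. The closed regions had a lower share than regions open at both times under all 34 alternatives run on these differences. All differences in this section are against regions open at both times. Regions open only at 48h, which are closer to closed regions in width and in shares, were not the comparison in them. With regions of at least the median width, the closed shares were 5.12% for EpiSC H3K27ac, 1.83% for CBP-P300, 28.5% for tailbud and 25.5% for anterior tissue, and the differences -60.8, -34.7, -57.8 and -61.3 percentage points. Asking for at least 50% of the region covered changed both the closed set, to 11562 regions, and each overlap with a list; CBP-P300 then overlapped 0.536% and the differences were -34.5, -5.38, -40.3 and -42.8. The parts of these changes were not separated. With the regions open at both times weighted to the widths of the closed ones, the differences were -11.9, -4.13, -19.1 and -21.5. With no 48h region within 500 bp, the shares were 3.19% for EpiSC H3K27ac, 24.9% for tailbud and 22.8% for anterior tissue. Using EpiSC replicate 1 or 2 alone gave 4.95% and 12.0%, with differences of -40.7 and -42.8. E9.5 replicate 1 in place of replicate 2 gave 11.8% for tailbud and 6.34% for anterior tissue (differences -43.8 and -44.1), and a region in both replicates 11.5% and 6.30% (-43.9 and -44.1). Input regions, the exclusion of Cdx2 and TBra regions and sex chromosomes moved these shares and differences by less than their intervals. No paired analysis was possible because no result comes from a test between replicated groups. The alternatives planned for counts of neighbouring genes were not run for want of an mm9 annotation. Depth is unknown, and 1 library per time limits every statement on closing.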
